A study of Bos taurus with 6 samples.

Results

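Transcripts of the ribosomal proteins were compared between bovine granulosa cells (GC) plated at high and at normal density. GC are the hormone-producing cells that line the ovarian follicle. The members were taken by gene symbol. Symbols of the RPL and RPS type, with RPLP0, RPLP1, RPLP2 and RPSA, were counted as proteins of the cytosolic ribosome, and symbols of the MRPL and MRPS type as proteins of the mitochondrial ribosome. The rule found 183 transcript clusters, the array's units for a gene. One RPL23A transcript cluster repeated all 6 values of another and was counted once, which left 182 of the 26773 transcript clusters of the array. Of these, 104 belonged to 82 cytosolic symbols and 78 to 76 mitochondrial symbols.

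Primary GC were cultured in alpha-MEM without serum, and the RNA of each culture was hybridized to 1 array of the type Bovine Gene 1.0 ST. The 3 normal density cultures had been plated at 100000 cells per well and the 3 high density cultures at 1000000 cells per well. Both groups were kept for 9 days and received 20 ng/ml FSH, 50 ng/ml IGF-1 and 2 μM androstenedione, so no culture lacked these factors. The cells had been aspirated from small to medium sized follicles of abattoir ovaries, frozen, and pooled over many cows of unknown cycle stage, so a culture does not represent 1 animal. The labels do not say whether the cultures of a group came from separate pools, and p-values measure only the spread between these cultures.

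A cell holds 2 kinds of ribosome. Cytosolic ribosomes translate the messages of the nucleus, and their proteins are encoded by strongly expressed genes whose mRNAs carry a 5′ terminal oligopyrimidine (TOP) tract, through which the kinase complex mTORC1 controls their translation. Mitochondrial ribosomes translate the few messages of the mitochondrial genome, all of which encode subunits of the respiratory chain and ATP synthase, and their proteins are also made from nuclear genes. In GC the mitochondria hold the first step of steroid synthesis, and transcripts of cytosolic ribosomal proteins are often taken as reference genes.

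The signals are log2 values per transcript cluster and differences are high minus normal density. A transcript cluster is termed called when its FC exceeded 1.5 in size (a log2 change of 0.585) with a p-value and an FDR below 0.05 in limma's moderated test, adjusted over the whole table, and past FDR when only the FDR was met. The background level, the 95th percentile of 82 control rows, was 4.62, and 12632 transcript clusters had a mean signal above it. Array medians lay between 4.34 and 4.43. High density replicate 2 stood apart from the other cultures and received an array weight of 0.289 in limma, against 0.824 to 1.66 for the others. Of the markers of GC, 12 of 12 were above background, and their summed linear signal was 7090 to 7610 at normal and 5850 to 6040 at high density. Above background were also 1 of 2 theca, 1 of 5 endothelial, 0 of 5 leukocyte, 1 of 3 red cell and 4 of 5 fibroblast and smooth muscle markers. The summed signal changed from 149 to 162 into 483 to 592 for theca, from 65.6 to 68.4 into 75.8 to 84.8 for endothelium, from 28.5 to 29.4 into 591 to 901 for red cells and from 1960 to 2110 into 2360 to 2480 for fibroblasts and smooth muscle. The leukocyte sums overlapped, at 52.9 to 58.3 and 52.7 to 61.4. Single markers did not all follow their sum. Past FDR, 6 GC markers fell and 2 rose, HSD17B1 (log2 change 1.26) and CYP11A1 (0.26). Of the fibroblast and smooth muscle markers COL1A1 (1.15) and COL3A1 (0.39) rose past FDR, while MYH11 (-0.67), below background, fell. Of the defining markers, CYP17A1 of theca, HBB and ALAS2 of red cells, and PECAM1, CDH5, KDR and TIE1 of endothelium were below background. Those above were INSL3 of theca, with a log2 change of 1.82 from normal to high density, HBA of red cells (5.90) and VWF of endothelium (0.31, adjusted p = 0.0572 in limma), and KDR rose past FDR (0.48, adjusted p = 0.0275 in limma) below the background level. The part of these markers in the results was not tested, and in such bulk samples fewer cells of a type and less RNA per cell cannot be told apart.

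At high density most cytosolic ribosomal protein transcripts lay within an FC of 1.5 of normal density. The median log2 change of the 104 transcript clusters was -0.02, with quartiles of -0.14 and 0.12, beside 0.02 for all rows and -0.06 for rows above background. The quartiles of all rows were -0.15 and 0.15. The median size of the change was 0.14, beside 0.15 for all rows and 0.2 for rows above background. The changes ran from -1.08 for a transcript cluster of RPS26 to 0.53 for one of RPL39. In 90 of 104 (86.5%) the 95% interval of the change lay within an FC of 1.5 in both directions. The same was true of 76.6% of all rows. Of the 93 cytosolic transcript clusters above background, 83 (89.2%) had such an interval, beside 72.0% of all rows above background. These 93 also had higher signals, with a median of 9.04 beside 6.8. Their SDs at high density were smaller, with a median of 0.0818 beside 0.115. The part of this in the intervals was not tested.

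Called were 0 cytosolic transcript clusters that rose and 5 that fell, or 4.81% of the 104, beside 7.49% of all rows and 12.0% of rows above background. The 5 were 4 transcript clusters of the small subunit, for RPS26, RPS27 and RPS27L, and 1 of the large subunit, for RPL7. Past FDR were 3 that rose (2.88%) and 8 that fell (7.69%). Over all rows 8.64% rose and 10.4% fell by this measure, and over rows above background 12.8% rose and 18.3% fell. The groups did not overlap in 17 cytosolic transcript clusters that were higher and 24 that were lower at high density. The corresponding shares, 16.3% and 23.1%, stood beside 17.8% and 19.5% of all rows and 21.5% and 32.8% of rows above background.

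The mitochondrial ribosomal proteins had a median log2 change of -0.08, with quartiles of -0.23 and 0.06, and 51 of 78 (65.4%) were below 0, beside 57.9% of rows above background. Called were 1 that rose, MRPL45, and 1 that fell, MRPS14, or 2.56%, beside 7.49% of all rows and 12.0% of rows above background. Past FDR were 1 that rose (1.28%) and 9 that fell (11.5%), shares that lay below those of rows above background and, for the falls, near that of all rows. The groups did not overlap in 11 that were higher (14.1%) and 21 that were lower (26.9%), beside 17.8% and 19.5% of all rows and 21.5% and 32.8% of rows above background. In 65 of 78 (83.3%) the 95% interval lay within an FC of 1.5. In the small subunit 13 of 30 transcript clusters (43.3%) were lower at high density in all 3 cultures and 3 (10%) were higher. In the large subunit 8 of 48 were lower and 8 higher (16.7% each). Of all rows 19.5% were lower and 17.8% higher by this measure, and of rows above background 32.8% and 21.5%. Whether the subunits differed was not tested. This split follows the symbols, although the proteins of MRPS30 and MRPS18A are now placed in the large subunit.

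**Figure D1:**
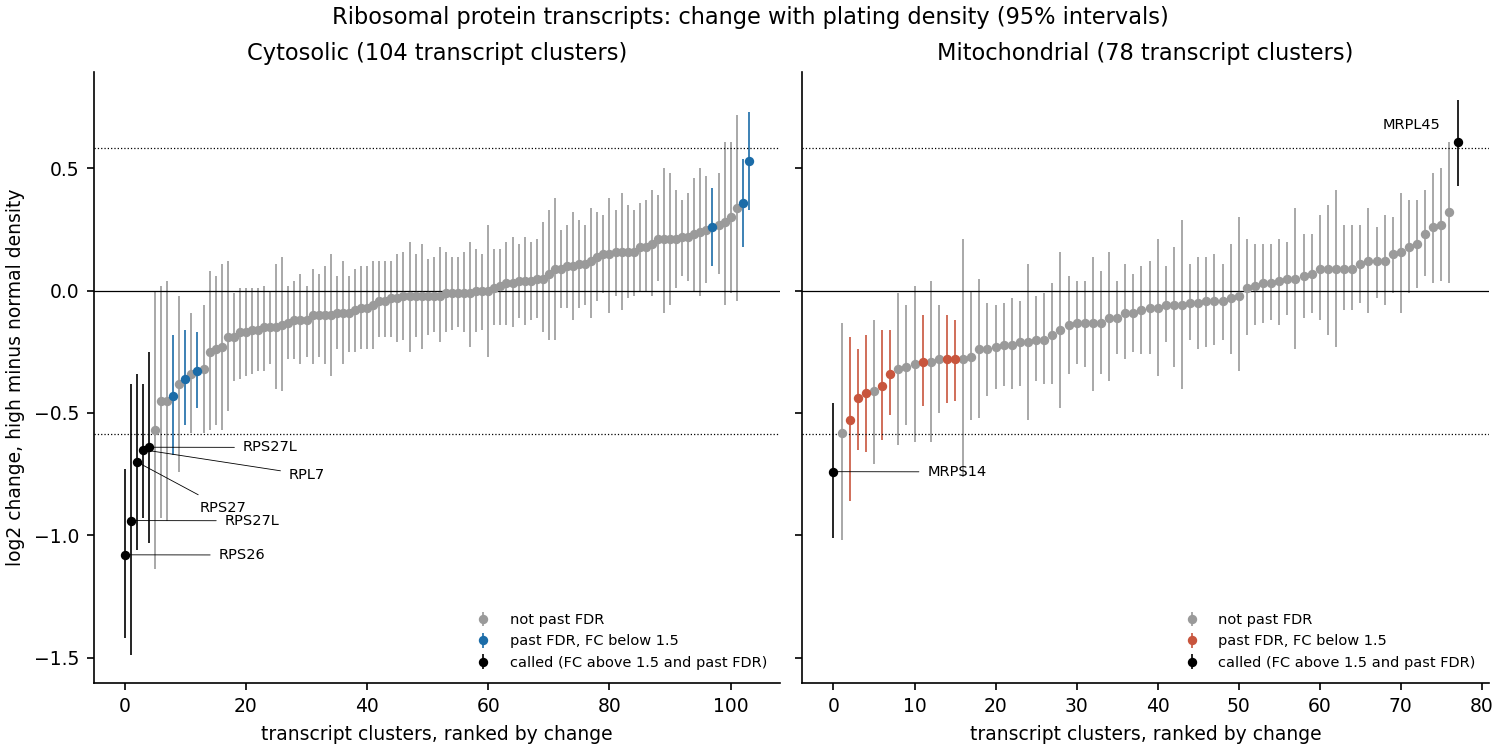
Log2 change (high minus normal density) of 104 cytosolic and 78 mitochondrial ribosomal protein transcript clusters, ranked, with 95% intervals from limma. Dotted lines mark an FC of 1.5 (0.585). The bulk of both classes lies between the lines, with 5 called falls among the cytosolic members and 1 called fall and 1 called rise among the mitochondrial ones.

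Taken culture by culture, the cytosolic class did not move as a block. The median signal minus the mean at normal density was -0.02, 0.02 and -0.05 in high density replicates 1, 2 and 3. For the mitochondrial class it was -0.15, -0.02 and -0.10, and for rows above background -0.06, -0.04 and -0.06. High density replicate 2 was the high density culture nearest to the normal mean in 57 of 104 cytosolic (54.8%) and 43 of 78 mitochondrial members (55.1%), beside 48.6% of rows above background. Without it, 30 cytosolic members were past FDR (12 rose and 18 fell) and 8 were called, and 27 mitochondrial members were past FDR (3 rose and 24 fell) and 3 were called. The number of all rows past FDR then grew from 5106 (19.1%) to 7806 (29.2%), and that of all rows called from 2005 to 2434. When any of the other 5 cultures was left out, 4 or 5 cytosolic and 2 to 5 mitochondrial members were past FDR, and 1 to 3 and 1 or 2 were called. Of all rows, 3025 to 3599 (11.3% to 13.4%) were past FDR in these fits and 1848 to 1937 were called.

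**Figure D2:**
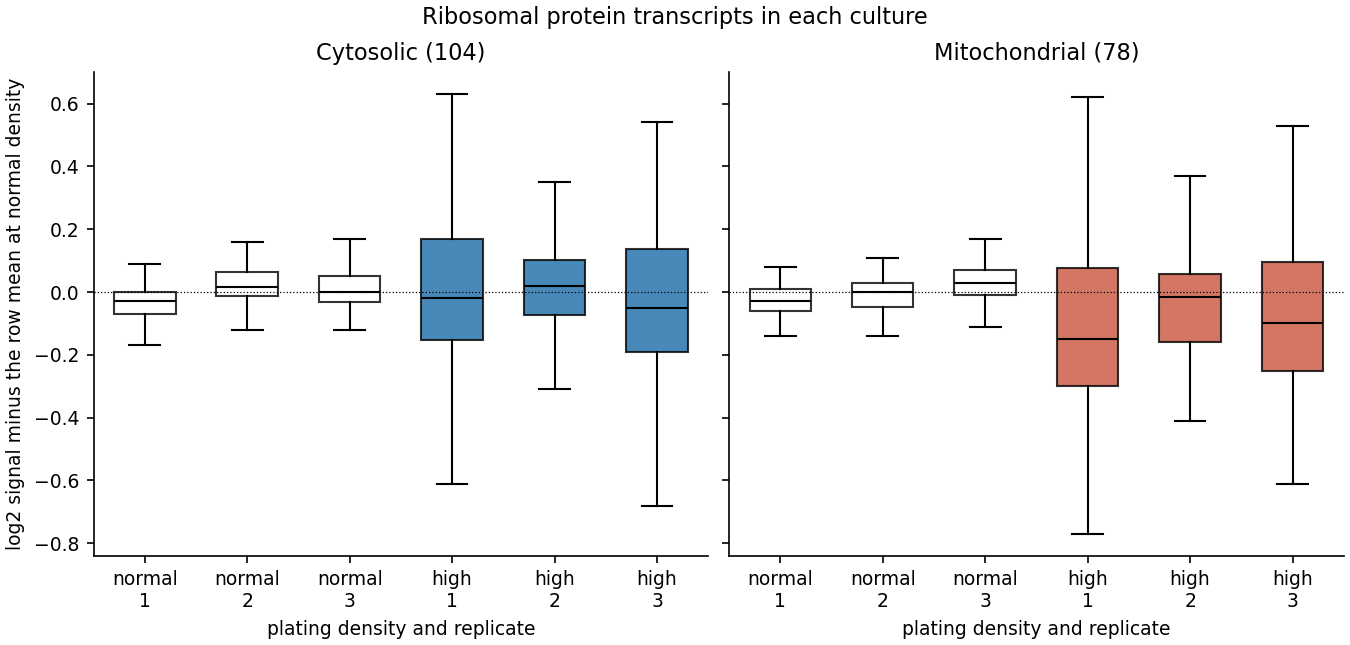
Log2 signal of each member minus its own mean over the 3 normal density cultures, for the 104 cytosolic and 78 mitochondrial transcript clusters in the 6 cultures. Boxes give the median and quartiles and whiskers reach to the last value within 1.5 quartile ranges, with values beyond not drawn. The spread of high density replicate 2 is the smallest of the high density cultures, and the mitochondrial medians of high density replicates 1 and 3 are -0.15 and -0.10.

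Among the small subunit proteins the largest fall was that of RPS26, which lies where mRNA leaves the ribosome. Transcript cluster 12865092 of RPS26 had signals of 5.29, 5.40 and 5.37 at normal density and of 4.17, 4.63 and 4.04 at high density. All high density cultures lay below all normal density cultures, and the mean at high density, 4.28, was under the background level; the fall could therefore not be followed further down. The log2 change was -1.08 ± 0.15 (SE, adjusted p = 0.00244 in limma), and it was past FDR whichever culture was left out. The other rows of this gene did not follow. Transcript cluster 12910562 of RPS26 had signals of 5.73, 5.89 and 5.68 at normal and 5.59, 5.57 and 5.58 at high density, a log2 change of -0.19 (adjusted p = 0.137 in limma). Its groups did not overlap either. The third, 12872747, was below background with a log2 change of 0.21 (adjusted p = 0.257 in limma).

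RPS27 and RPS27L encode 2 closely related zinc-finger proteins of the small subunit, and RPS27L is known as a target of p53. Transcript cluster 12847493 of RPS27 had signals of 6.45, 6.49 and 6.51 at normal and 5.44, 6.10 and 5.80 at high density. Its groups were clearly apart, with high density replicate 2 the highest of its group. The log2 change was -0.70 ± 0.15 (SE, adjusted p = 0.0189 in limma). It was called only with all cultures or without high density replicate 2 (-0.86). Without high density replicate 1 it was -0.53, and without normal density replicate 1, 2 or 3 or high density replicate 3 the adjusted p rose to between 0.0549 and 0.0679. A second RPS27 row, 12872840, was below background with a log2 change of 0.34 (adjusted p = 0.204 in limma). The row 12847493 is annotated with a RefSeq record for a non-coding RNA of RPS27. Whether its signal came from the coding mRNA was not tested.

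For RPS27L, transcript cluster 12835544 had signals of 8.63, 8.40 and 8.82 at normal and 7.38, 8.25 and 7.40 at high density. Transcript cluster 12691842 had signals of 9.71, 9.59 and 10 at normal and 8.98, 9.47 and 8.94 at high density. In both rows high density replicate 2 lay close to normal density replicate 2, the lowest normal culture, and the groups did not overlap. The log2 changes were -0.94 ± 0.24 and -0.64 ± 0.17 (SE, adjusted p = 0.0324 and 0.0348 in limma). Both were past FDR in 1 of the 6 fits that left out a culture, the one without high density replicate 2. In the other 5 fits the adjusted p lay between 0.0527 and 0.114.

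The large subunit protein RPL7 was measured by 2 rows that differed. Transcript cluster 12725267 of RPL7 had signals of 7.59, 7.62 and 7.72 at normal and of 6.88, 7.25 and 6.84 at high density, all lower than at normal density. Its log2 change was -0.65 ± 0.12 (SE, adjusted p = 0.00806 in limma), and it stayed past FDR without any single culture, with a log2 change of -0.58 without high density replicate 3. Transcript cluster 12869430 of RPL7 had signals of 10.05, 10.08 and 10.15 at normal and 9.93, 10.35 and 9.99 at high density. Here the groups overlapped, and the adjusted p was 0.999 in limma. Within a culture the difference between the 2 rows was -2.45, -2.46 and -2.43 at normal and -3.05, -3.10 and -3.15 at high density, so it hardly varied within a group.

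The other 3 large subunit transcripts that fell past FDR did so with an FC below 1.5. RPL15 (12824974) had signals of 7.17, 7.31 and 7.42 at normal and 6.71, 7.02 and 6.90 at high density, a log2 change of -0.43 ± 0.11 (SE, adjusted p = 0.0295 in limma). RPL12 (12888358), a protein at the base of the stalk that binds elongation factors, had signals of 9.17, 9.13 and 9.21 at normal and 8.80, 8.86 and 8.86 at high density, a log2 change of -0.33 ± 0.07 (SE, adjusted p = 0.0132 in limma). Neither gene was uniform over its rows. The other RPL15 row had a log2 change of -0.15 (adjusted p = 0.411 in limma) and the other 2 RPL12 rows had -0.15 and -0.13 (adjusted p = 0.155 and 0.208 in limma). RPL26L1, a paralog of RPL26, had signals of 5.04, 5.17 and 5.23 at normal and 4.72, 4.76 and 4.89 at high density, a log2 change of -0.36 ± 0.08 (SE, adjusted p = 0.0233 in limma), near the background level. RPL15 lost the FDR without normal density replicate 2 or 3 or high density replicate 1 or 3 (adjusted p = 0.0745 to 0.108 in limma), RPL26L1 without normal density replicate 2 or 3 or high density replicate 1 (0.0746 to 0.0937), and RPL12 without normal density replicate 1 or 3 (0.0559 and 0.0640).

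The 3 cytosolic rises past FDR came from RPL39 and RPS21, both small proteins, of which RPL39 lines the tunnel through which the new peptide leaves. Transcript cluster 12910359 of RPL39 had signals of 8.67, 8.84 and 8.66 at normal and 9.35, 9.14 and 9.26 at high density, and 12906453 had 8.88, 9.04 and 8.89 at normal and 9.37, 9.25 and 9.28 at high density. Every high density culture was above every normal density culture in both rows. The log2 changes were 0.53 ± 0.09 and 0.36 ± 0.08 (SE, adjusted p = 0.0055 and 0.0175 in limma). The first was past FDR whichever culture was left out, and was called (0.59) without normal density replicate 2, while the second was so only without normal density replicate 2 or high density replicate 2 (adjusted p up to 0.0752 in the other fits). RPS21 had signals of 7.49, 7.48 and 7.40 at normal and 7.69, 7.76 and 7.70 at high density, a log2 change of 0.26 ± 0.07 (SE, adjusted p = 0.0358 in limma). It remained past FDR without high density replicate 2 (0.0379) and in no other fit that left out a culture (0.0725 to 0.137), and with arrays shifted to the same median the adjusted p was 0.0919.

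**Figure D3:**
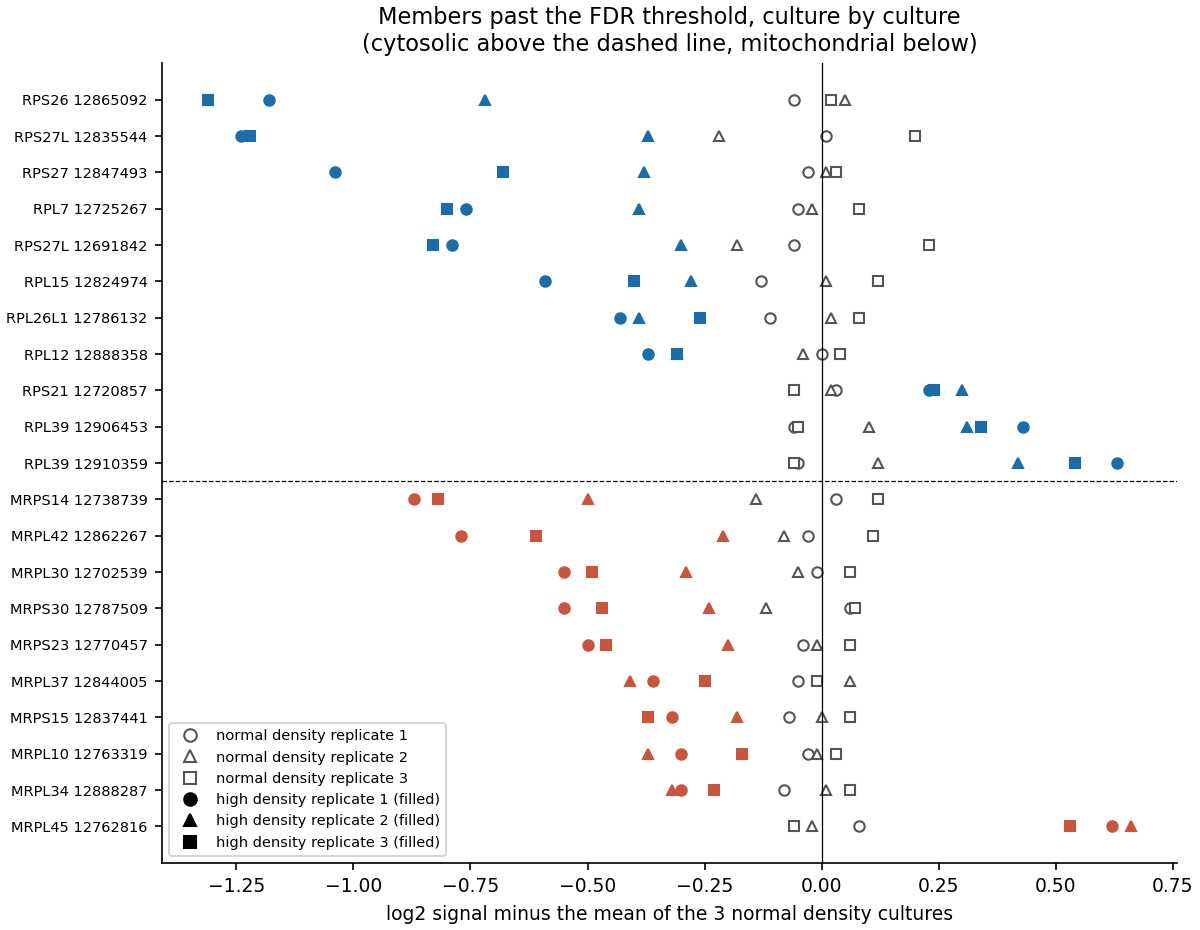
Log2 signal minus the mean of the normal density cultures for the 11 cytosolic (blue) and 10 mitochondrial (red) transcript clusters past FDR, with open symbols for normal and filled symbols for high density and 1 symbol shape per replicate number. No groups overlap in these rows. High density replicate 2 (triangles) lies nearest to the normal density cultures in 9 of the 11 cytosolic rows (81.8%) and 6 of the 10 mitochondrial rows (60%).

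Several ribosomal proteins have paralogs that can replace them in the ribosome. RPL22L1 is the paralog of RPL22, a protein known to hold down RPL22L1 expression. RPL22 had signals of 5.96, 6.24 and 6.04 at normal and 6.27, 6.43 and 6.29 at high density, which did not overlap (log2 change 0.25, adjusted p = 0.118 in limma). RPL22L1 (12682373) had signals of 7.08, 7.06 and 7.35 at normal and 6.37, 7.20 and 6.21 at high density, and a second row (12829151) had 8.57, 8.43 and 8.71 at normal and 7.96, 8.53 and 8.08 at high density. In both rows of RPL22L1 high density replicate 2 lay within the normal range while replicates 1 and 3 lay below it. The log2 changes were -0.57 and -0.38 (adjusted p = 0.154 and 0.136 in limma), and without high density replicate 2 they were -0.88 and -0.55 (adjusted p = 0.0039 and 0.0115). Both rows were past FDR in this fit only, 1 of the 6 that left out a culture. In the other fits the adjusted p in limma reached 0.368 and 0.329. Within a culture, the signal of RPL22L1 (12682373) minus that of RPL22 was 1.12, 0.82 and 1.32 at normal and 0.10, 0.77 and -0.07 at high density, with no overlap.

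Of 11 such differences within a culture, between paralogs or between rows of a gene, 6 did not overlap between the groups. They were those of RPL22L1 and RPL22 (both rows) and those between rows of RPL7, RPS26, RPL15 and RPL12. In an exact two-sided permutation test each of these had p = 0.1, the smallest that 3 cultures against 3 allow, and an adjusted p of 0.183. The pairs were chosen with the values known. Those between rows of a gene came from symbols with a row past FDR beside one that was not, so unequal change was part of the choice. For these the test cannot decide whether the rows differ. The differences are only a description of unequal change in these cultures.

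RPS4X, a small subunit protein, had signals of 9.06, 9.06 and 9.40 at normal and 8.50, 9.22 and 8.46 at high density. High density replicate 2 again lay within the normal range, and the log2 change was -0.45 (adjusted p = 0.189 in limma), or -0.70 without this culture (0.0103). RPS4X was past FDR in this fit only, 1 of the 6 that left out a culture, with an adjusted p of up to 0.425 in the others. Its paralog RPS4Y1 had signals of 6.64, 6.73 and 6.94 at normal and 6.42, 6.56 and 6.32 at high density, which did not overlap (log2 change -0.34, adjusted p = 0.0626 in limma). For the pairs RPL26 and RPL26L1, RPL7 and RPL7L1, RPS27 and RPS27L and RPS4X and RPS4Y1 the difference within a culture overlapped between the groups. RPL7L1 had a log2 change of -0.16 (95% interval -0.34 to 0.01). RPL3 had 0.10 (-0.12 to 0.32), and RPL10 had -0.15 and -0.12 in its 2 rows (adjusted p = 0.213 and 0.224 in limma). Their paralogs RPL3L, known from striated muscle, and RPL10L, known from testis, had mean signals of 3.51 and 2.18, below background, with log2 changes of 0.28 and 0.21 (adjusted p = 0.229 and 0.318 in limma).

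Over all members, 21 symbols had several rows, 45 rows in all. In 14 of the 21 the log2 changes of a symbol lay within 0.2 of each other. In 5, RPL7, RPL12, RPL15, RPS26 and RPS27, a row past FDR stood beside one that was not. Ribosomal protein genes have many near-identical copies and processed pseudogenes, and a row's signal may hold transcripts of more than 1 copy. How far this touched the rows was not tested. One row of RPL39, 12906453, had the same 6 values as 3 further rows that the table gives to both RPL39 and another locus.

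**Figure D4:**
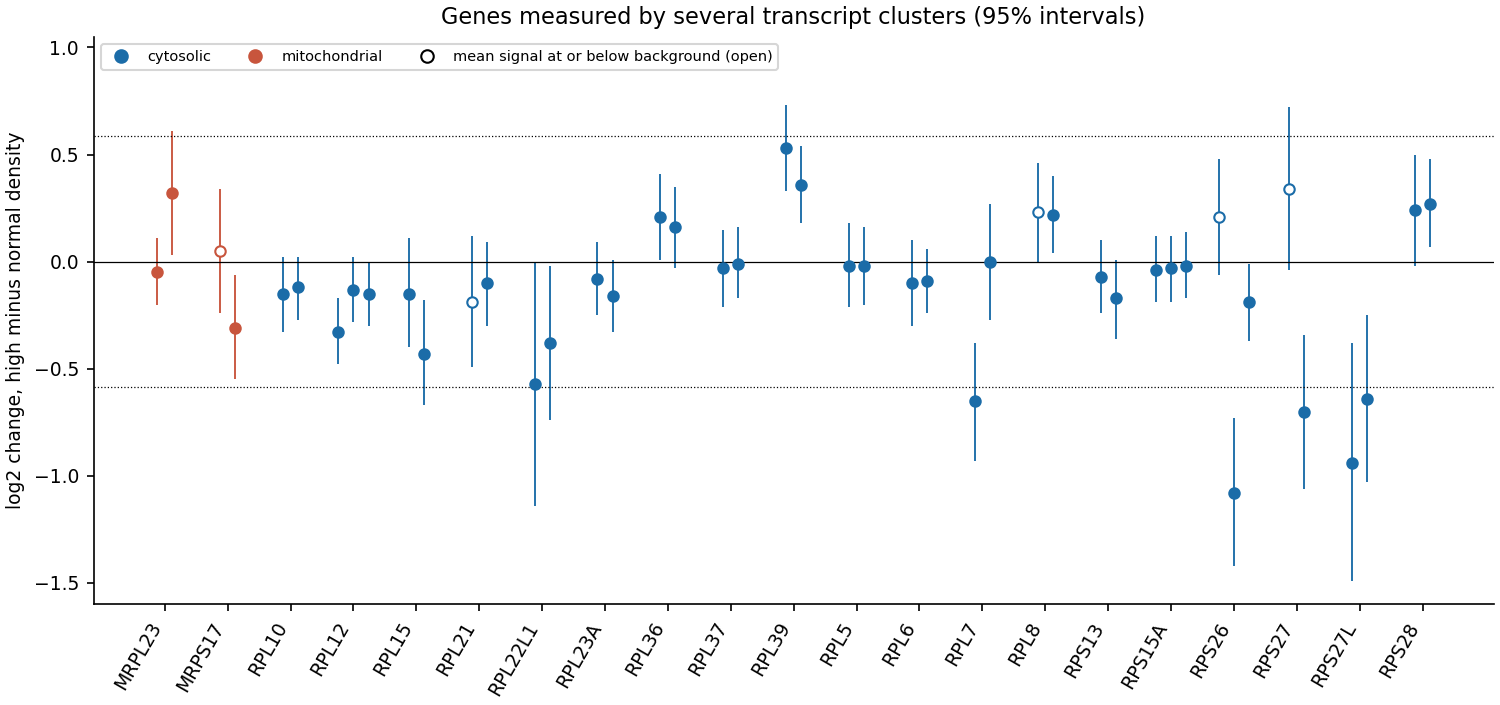
Log2 change (high minus normal density) with 95% interval for each transcript cluster of the 21 symbols measured more than once, in blue for cytosolic and red for mitochondrial proteins, with open symbols for mean signals at or below background. Dotted lines mark an FC of 1.5. The rows of RPL5, RPL6, RPL10, RPL37 and RPS15A lie close together, while those of RPL7, RPS26 and RPS27 are spread from below the line to near or above 0.

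The gene to which the qPCR values were normalized, RPLP0, encodes the central protein of the stalk. RPS18 and B2M, the latter no ribosomal protein gene, had been compared with it as reference genes and were not used. The methods report closely similar RPLP0 levels at both densities, and say that RPS18 and B2M differed from it in this. The primers for RPLP0, 5′ to 3′, are shown because all qPCR levels of the study were related to this transcript.
RPLP0 forward: tggttacccaaccgtcgcatctgta
RPLP0 reverse: cacaaaggcagatggatcagccaag
On the arrays RPLP0 had signals of 10.55, 10.63 and 10.59 at normal and 10.60, 10.58 and 10.56 at high density. The high density values lay inside the range of the normal density values, and the log2 change was -0.01 with a 95% interval of -0.16 to 0.14. RPS18 had signals of 9.78, 9.74 and 9.68 at normal and 9.75, 9.67 and 9.68 at high density, which overlapped, with a log2 change of -0.04 and an interval of -0.19 to 0.12. The array values of RPS18 thus changed little, unlike the report of the methods. That report belongs to the qPCR part of the methods, while the array signals had been normalized between arrays by RMA. The measures are therefore unlike, and the reason for the difference was not tested. The range of RPLP0 over the 6 cultures was 0.08. The other stalk proteins, RPLP1 and RPLP2, had log2 changes of 0.05 (-0.11 to 0.21) and 0.15 (-0.09 to 0.38).

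Signals of different transcript clusters depend on their probes and do not rank amounts of transcript. The highest mean signals were those of RPL23 (11.5), RPL10 and RPS2, with log2 changes of 0.04 for RPL23 and -0.07 for RPS2. At the other end, 11 cytosolic rows were at or below background. Among them were the only rows of RPL24, RPL30, RPL38, RPS14 and RPS23, which encode core proteins of a ribosome that every cell needs. RPL30 had signals of 2.14, 2.21 and 2.25 at normal and 2.20, 2.33 and 2 at high density. A signal at background in these rows does not show that the transcript was absent. The other 6 were the rows of RPL3L and RPL10L and 1 row each of RPL8, RPL21, RPS26 and RPS27. RPS14 and RPS23 had log2 changes of 0.30 and -0.45 (adjusted p = 0.173 and 0.171 in limma) on such signals. In the mitochondrial class MRPL14 (9.75), MRPS10 (9.73) and MRPL16 (9.60) had the highest mean signals, with log2 changes of -0.04, -0.23 and -0.06. MRPL15, MRPS24 and 1 of 2 rows of MRPS17 were below background.

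Of the mitochondrial small subunit proteins MRPS14 changed most. It had signals of 6.94, 6.77 and 7.03 at normal and 6.04, 6.41 and 6.09 at high density. All high density cultures were lower, and the log2 change of -0.74 ± 0.12 (SE, adjusted p = 0.00513 in limma) was called whichever culture was left out. MRPS30 had signals of 7.96, 7.78 and 7.97 at normal and 7.35, 7.66 and 7.43 at high density, a log2 change of -0.42 ± 0.10 (SE, adjusted p = 0.0281 in limma). MRPS23 had signals of 7.48, 7.51 and 7.58 at normal and 7.02, 7.32 and 7.06 at high density, a log2 change of -0.39 ± 0.10 (SE, adjusted p = 0.0301 in limma). In both, high density replicate 2 was the highest of its group. MRPS23 kept the FDR only without high density replicate 2, and MRPS30 without that culture or without normal density replicate 2. MRPS15 fell by 0.29 on the log2 scale (adjusted p = 0.0433 in limma) and was past FDR in 1 of 6 such fits, the one without high density replicate 2. The 3 proteins related to bacterial S18 were MRPS18A, MRPS18B and MRPS18C, with log2 changes of -0.14, -0.22 and -0.06 (adjusted p = 0.295, 0.0827 and 0.835 in limma). Only the groups of MRPS18B did not overlap among these 3.

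MRPL45, a protein of the large subunit near the exit of the peptide tunnel, was the 1 mitochondrial ribosomal protein transcript that rose past FDR. It had signals of 7.51, 7.41 and 7.37 at normal and 8.05, 8.09 and 7.96 at high density, with all high density cultures well above the others. The log2 change was 0.61 ± 0.07 (SE, adjusted p = 0.00148 in limma), close to the threshold of 0.585. It was past FDR whichever culture was left out, but with normal density replicate 3 left out its log2 change was 0.57, and with high density replicate 2 left out it was 0.58.

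The falls of the large subunit were all smaller than that of MRPS14. MRPL42 had signals of 7.93, 7.88 and 8.07 at normal and 7.19, 7.75 and 7.35 at high density, a log2 change of -0.53 ± 0.14 (SE, adjusted p = 0.0405 in limma). MRPL30 had signals of 6.79, 6.75 and 6.86 at normal and 6.25, 6.51 and 6.31 at high density, a log2 change of -0.44 ± 0.09 (SE, adjusted p = 0.0120 in limma). In each the 3 high density cultures were the lowest, with replicate 2 nearest to normal density. MRPL42 was past FDR only without high density replicate 2, where it was called (-0.69), and MRPL30 lost the FDR only without normal density replicate 3 (0.0558). MRPL37, MRPL34 and MRPL10, the last at the base of the stalk, fell by 0.34, 0.28 and 0.28 on the log2 scale (adjusted p = 0.0186, 0.0312 and 0.0436 in limma). In these 3 rows high density replicate 2 did not lie nearest to normal density. They were past FDR in 2, 1 and 1 of the 6 fits that left out a culture, the fit without high density replicate 2 for MRPL37 and MRPL34 and the one without high density replicate 3 for MRPL37 and MRPL10. MRPL35 had a log2 change of -0.58 (adjusted p = 0.0794 in limma), with high density replicate 2 at 7.10 inside the normal range of 7.09 to 7.50.

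Genes around the 2 ribosomes were described by lists of other translation and assembly genes. Among 63 transcript clusters for rRNA synthesis and ribosome assembly the median log2 change was -0.12, with 3 past FDR that rose and 9 that fell. This was 19.0% of the list, beside 19.1% of all rows and 31.1% of rows above background, and the share called was 1.59%, beside 7.49% and 12.0%. NOLC1, a nucleolar chaperone of small ribonucleoproteins, was the 1 called. It had signals of 6.43, 6.42 and 6.36 at normal and 7.20, 7.20 and 7.15 at high density, a log2 change of 0.78 ± 0.06 (SE, adjusted p = 0.000264 in limma). MDN1 (-0.58), a remodelling ATPase of the large subunit precursor, fell past FDR and was called without high density replicate 2 (-0.64) and also without normal density replicate 3 or high density replicate 3. Without high density replicate 2 the counts were 4 and 19, and without any other culture they were 1 and 2 or 3. Among 20 rows of translation factors and other mRNAs of the TOP class 0 rose past FDR and 1 (5%) fell, EIF3L (-0.23, adjusted p = 0.0426 in limma), with a median of -0.04. Of all rows 8.64% rose and 10.4% fell past FDR, and of rows above background 12.8% and 18.3%. Without high density replicate 2 the counts of this list were 1 and 7, with EEF1A1 (-0.72) and NAP1L1 (-0.59) called, and without any other culture 0 and 0. The share of all rows past FDR was 29.2% without high density replicate 2 and 11.3% to 13.4% without any other culture.

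On the mitochondrial side MTIF2, the initiation factor that brings the first tRNA, was called lower on signals near the background level. It had signals of 4.78, 4.60 and 4.71 at normal and 3.96, 3.93 and 3.75 at high density, a log2 change of -0.82 ± 0.09 (SE, adjusted p = 0.000851 in limma), with the mean at high density, 3.88, below background, so that the size of this change is uncertain. It was the 1 of 11 translation factor rows past FDR, 9.09% of the list, beside 19.1% of all rows and 31.1% of rows above background. The list median was -0.17. Without high density replicate 2 there were 5 such rows, while all rows past FDR grew to 29.2%. Of 20 rows for mitochondrial ribosome assembly 1 rose and 4 fell past FDR, with a median of -0.12. These are 25% of the list, between the 19.1% of all rows and the 31.1% of rows above background, and 10% were called, beside 12.0% of rows above background. FASTKD2, which binds the large ribosomal RNA, had signals of 7.06, 6.92 and 7.10 at normal and 6.16, 6.52 and 6.43 at high density, a log2 change of -0.66 ± 0.11 (SE, adjusted p = 0.00552 in limma). FTSJ2, which methylates it, had signals of 6.41, 6.33 and 6.44 at normal and 5.73, 5.83 and 5.84 at high density, a log2 change of -0.59 ± 0.07 (SE, adjusted p = 0.0014 in limma). NSUN4, a methyltransferase for the small ribosomal RNA, and GTPBP10 fell by 0.54 and 0.50 on the log2 scale, and YBEY, an endoribonuclease, rose by 0.42. All 5 stayed past FDR without any single culture, although FASTKD2 was -0.55 without high density replicate 1 and FTSJ2 was -0.56 without that culture and -0.57 without normal density replicate 3, below the FC threshold. NSUN4 was called without normal density replicate 1 (-0.60) or high density replicate 1, and MTERFD1 (-0.52, adjusted p = 0.127 in limma) without high density replicate 2 (-0.77). Of 6 mitochondrial ribosome proteins with other names PTCD3 (-0.34) and DAP3 (-0.29) fell past FDR (33.3%), and of 6 transcription and mRNA handling rows TFAM (-0.35), which packs and transcribes mitochondrial DNA (16.7%), beside 10.4% of all rows and 18.3% of rows above background. These 3 were lost when any culture other than high density replicate 2 was left out, the adjusted p being 0.0403, 0.033 and 0.032 in limma with all cultures.

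Of 19 rows for mTORC1 and the control of TOP mRNAs 4 rose and 2 fell past FDR, with a median log2 change of -0.05. The share past FDR was 31.6% and the share called 15.8%, beside 31.1% and 12.0% of rows above background. The 3 called rises were those of DDIT4 and SESN2, which are stress-induced inhibitors of mTORC1, and of EIF4EBP1, which mTORC1 inactivates and which blocks the cap-binding protein. DDIT4 had signals of 7.99, 8.05 and 7.90 at normal and 9.14, 8.93 and 9.06 at high density, a log2 change of 1.06 ± 0.08 (SE, adjusted p = 0.000201 in limma). SESN2 had 5.02, 4.84 and 4.88 at normal and 5.88, 5.60 and 6 at high density, a log2 change of 0.91 ± 0.11 (SE, adjusted p = 0.00159 in limma). EIF4EBP1 had 7.29, 7.31 and 7.25 at normal and 8.32, 7.95 and 8.25 at high density, a log2 change of 0.89 ± 0.10 (SE, adjusted p = 0.00128 in limma). All 3 were called whichever culture was left out. SESN1 (-0.48) and TSC1 (-0.31) fell and MLST8 (0.38) rose past FDR. Of all 19 rows, 4 rose and 3 fell past FDR without high density replicate 2, and 3 rose and at most 1 fell without any other culture. These are transcript levels, and neither the activity of mTORC1 nor translation was measured on the arrays.

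**Figure D5:**
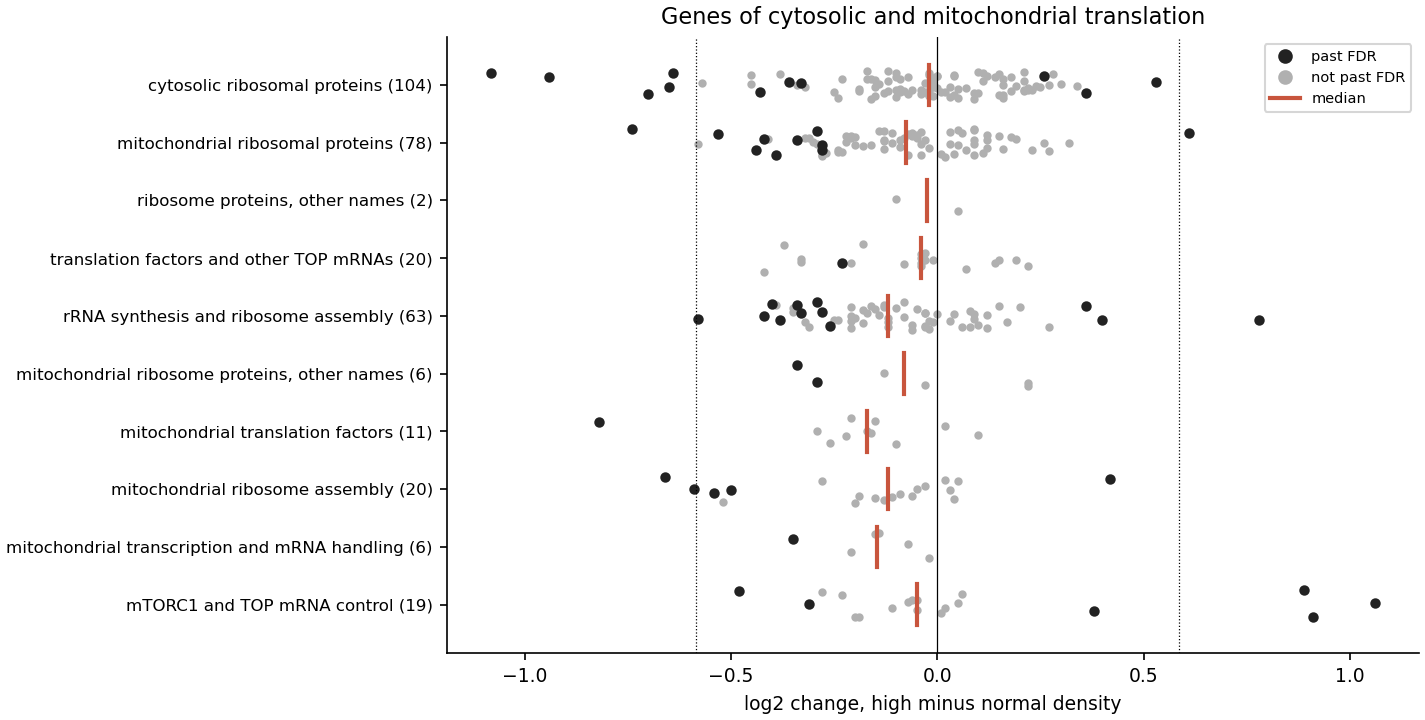
Log2 change (high minus normal density) of the ribosomal proteins and of the genes of 8 lists around them, with the number of transcript clusters in parentheses, 1 point per transcript cluster, dark where past FDR, and the median as a red line. Dotted lines mark an FC of 1.5. The medians lie between -0.17 and -0.02, and the points furthest to the right are DDIT4, SESN2 and EIF4EBP1 of the mTORC1 list and NOLC1.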

How the data were processed

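RNA of 6 GC cultures was hybridized to arrays of the type Bovine Gene 1.0 ST. The deposited table holds log2 signals per transcript cluster, which the authors had background corrected, normalized and summarized by RMA in Expression Console. They were not normalized again here. The table holds 0 columns of other samples. Groups were those of the labels, and plating and hormone values those of the study's methods.

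The 2 densities were compared by limma (version 3.58.1, R 4.3.3) with lmFit and eBayes and no covariate, and p-values were adjusted by Benjamini-Hochberg over the 26773 transcript clusters. Thresholds were an FC of 1.5 and a p-value and FDR of 0.05. The fit was tested on simulated data. With 3 arrays per group the precision is limited, and 0.1 is the lowest p of an exact permutation test. Figures were drawn with matplotlib 3.10.9.

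Members, lists and pairs were chosen with earlier results of these data known. Genes named are the called members and, in each class, the 5 largest rises and falls past FDR. Named too are RPLP0 and RPS18, paralogs, and symbols with a row past FDR beside one that was not. Called genes of the lists, up to 5 each, and the 3 highest and lowest signals per class complete the rule. Others were named after their values were seen. Of the member rows, 111 had an accession in the RefSeq gene table (ARS-UCD2.0), and all 111 bear the same symbol there. List genes without a row were not analysed here. Some items are not reported here.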

Additional observations from a re-analysis of the deposited data

How the results depend on the processing

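With 3 cultures per group the counts moved with the variance estimate and with single cultures, while the class medians stayed near 0. The methods name an ANOVA, which for 2 groups equals a t-test with pooled variance, here termed the pooled t-test. Called cytosolic members, 5 in the analysis above, were 1 with the pooled t-test, 0 with a Welch version of it (3 at an unadjusted p below 0.05, and 5 in limma), 3 with a replicate block and 2 with 1 row per symbol, and 1 to 8 when a culture was left out, 8 being without high density replicate 2. Cytosolic members past FDR, 11 above, were 1 with the Welch version, 20 with trend and robust variances, 27 with array weights, 7 with a replicate block, 17 when rows above background alone were tested, 6 with 1 row per symbol and 4 to 30 when a culture was left out. Called mitochondrial members, 2 above, were 1 with the Welch version, 1 with arrays shifted to the same median and 1 to 3 when a culture was left out. Mitochondrial members past FDR, 10 above, were 6 with the pooled t-test, 1 with the Welch version, 26 with array weights, 3 with a replicate block, 22 when rows above background alone were tested and 2 to 27 when a culture was left out. All rows past FDR moved too, from 5106 to 7977 with array weights, 4002 with the replicate block, 3527 with the pooled t-test and 1398 with the Welch version. They were 41.1% of the rows above background when these alone were tested, and 3025 to 7806 when a culture was left out. All rows called, 2005 above, were 1611 with the pooled t-test, 838 with the Welch version and 1848 to 2434 when a culture was left out. With arrays shifted to the same median, the median log2 change was -0.060 in the cytosolic class (-0.016 above) and -0.121 in the mitochondrial class (-0.077 above). The median of all rows moved as well in this setting, from 0.02 to -0.03. Of 51 named rows, the side of the FDR threshold changed in none with a second quantile normalization or with identical rows counted once, while 9 lost the FDR and 3 gained it with the pooled t-test, 15 lost it with the Welch version, 7 lost it with the replicate block, 8 gained it with array weights and 5 with trend and robust variances. No row past FDR changed sign in any of these settings. The causes were not tested.

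The replicate numbers were not shown to pair the cultures. Deviations from the group means correlated at 0.0459, -0.0457 and -0.0406 for the same numbers, and not every culture correlated best with its own number. The 1 row per symbol choice and the inclusion of rows with several symbols were made after seeing the data. Signals near the background level limit the changes of RPS26, RPL26L1 and MTIF2.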

Other observations

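In all, 8 transcript clusters carry a cytosolic ribosomal protein symbol beside another symbol and were not counted as members. Of these, 3 given to RPL39 and a further locus, had equal values in all 6 cultures, of 8.88, 9.04 and 8.89 at normal and 9.37, 9.25 and 9.28 at high density. One given to RPL36AL and RPL36A had signals of 9.44, 9.35 and 9.43 at normal and 9.68, 9.59 and 9.57 at high density, with a log2 change of 0.20 (adjusted p = 0.0879 in limma), and a second had a log2 change of 0.11 (adjusted p = 0.755 in limma). The 2 given to RPL23A had log2 changes of -0.14 and -0.09 (adjusted p = 0.266 and 0.406 in limma), and one given to RPL35A was below background.

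Over the cytosolic members, the signed log2 change correlated at r = -0.547 with the SD at high density, and over the mitochondrial members at r = -0.41. Members that fell more thus tended to have the larger spread among the high density cultures. Both the change and this SD are computed from the same high density values. The correlation with the mean signal was 0.0836 and -0.0501. These are correlations across 104 and 78 transcript clusters of the same 6 arrays, whose members are not independent.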
